A study of Mus musculus with 24 samples.

Results

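The 8 genes described here encode enzymes that break down amino acids: Tat, Hpd, Hgd and Fah of the tyrosine route, Tdo2 of the tryptophan route, Hal of the histidine route, Sds for serine and Aass for lysine. They were chosen by name from a list of symbols, with no threshold on measured values, and all 8 of the 8 listed genes were present among the 27179 genes of the deposited table. All 8 also passed the filter on low values, a mean log2 value of at least 0, which left 25680 genes for testing. Trimethylation of histone H3 at lysine 4 (H3K4m3) was measured by chromatin immunoprecipitation and sequencing in mouse brain, heart, kidney and liver. Each organ had been preserved by flash freezing or by formalin fixation and embedding in paraffin (FFPE). The labels list 12 H3K4m3 samples, 4 of them frozen and 8 FFPE, and 12 input samples, which were not analysed here. The values used here stand in 8 columns, 1 for each organ and preservation type, each called a library below. The columns carry neither an antibody name nor a replicate number, and the sources used here do not say whether an FFPE column merges the 2 FFPE samples of an organ.

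No treatment or allele is named for any group, and strain, age and sex are not stated in the labels used here. Frozen cores were crosslinked with formaldehyde before shearing, whereas FFPE material was freed of paraffin and extracted with heat. The labels also name 2 families of library kits without assigning them to samples. Preservation, tissue preparation and any kit difference therefore cannot be told apart. Nothing in the labels says that libraries came from separate animals, so the p-values below rest on the spread between these 8 libraries, part of which may be technical. Reads recovered over the genes of the deposited table came to 3388631 to 5275085 in FFPE libraries and 1792394 to 2976029 in frozen ones. Reads outside these genes are not included. The organ labels were checked against marker genes. Hepatocyte markers were higher in liver for 10 of 10 genes, proximal tubule markers higher in kidney than in brain and heart for 4 of 8, and neuron markers higher in brain than in heart for 7 of 8. Cardiomyocyte markers were lower in brain than in heart for 4 of 8. The shares of all tested genes in these 4 comparisons were 5.13%, 1.25%, 3.01% and 3.31%, in the same order. Kupffer cell and macrophage markers were higher in liver for only 1 of 6, and bile duct markers for 0 of 4. Of the bile duct markers, 2 of 4 were higher in kidney than in brain and heart. In bulk tissue, a smaller share of cells carrying the mark and less of the mark per cell cannot be told apart.

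The liver takes up most dietary amino acids from the portal blood and degrades what is not needed for protein synthesis. Carbon skeletons enter the citric acid cycle or glucose and ketone synthesis, and the nitrogen is passed to urea. Several of the enzymes act mainly in hepatocytes, and some of them also in the kidney proximal tubule. H3K4m3 is a mark of nucleosomes around the start of active or poised genes. It is broadest and most constant at promoters rich in CG dinucleotides, which many genes used in all tissues have.

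The upstream sequences of 4 of these genes are printed below. Fah is shown because it was the enzyme that did not pass in the comparison of liver with the other organs. Tat, Tdo2 and Hal are shown because they passed in the test of whether the liver difference was the same in the 2 preservation types, calls that were lost after quantile normalization. Each run holds the 250 bases before the annotated start, 5′ to 3′ on the strand of the gene, with CG dinucleotides in capitals. Sequences and positions are from RefSeq, on the GRCm38 assembly. The runs lie at chr7:84605943-84606192 on the minus strand for Fah, at chr8:109990186-109990435 on the plus strand for Tat, at chr3:81975729-81975978 on the minus strand for Tdo2 and at chr10:93488518-93488767 on the plus strand for Hal. The start used for Tat, position 109990436, lies inside its annotated span.
Fah: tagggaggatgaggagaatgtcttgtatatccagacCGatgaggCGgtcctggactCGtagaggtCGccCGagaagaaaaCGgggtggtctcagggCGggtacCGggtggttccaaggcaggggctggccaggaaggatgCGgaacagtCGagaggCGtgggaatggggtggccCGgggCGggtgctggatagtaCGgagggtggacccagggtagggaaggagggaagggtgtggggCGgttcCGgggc
Tat: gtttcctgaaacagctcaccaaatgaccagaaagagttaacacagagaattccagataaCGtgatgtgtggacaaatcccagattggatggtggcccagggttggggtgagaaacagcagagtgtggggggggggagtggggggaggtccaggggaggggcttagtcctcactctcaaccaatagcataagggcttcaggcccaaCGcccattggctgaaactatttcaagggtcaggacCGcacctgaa
Tdo2: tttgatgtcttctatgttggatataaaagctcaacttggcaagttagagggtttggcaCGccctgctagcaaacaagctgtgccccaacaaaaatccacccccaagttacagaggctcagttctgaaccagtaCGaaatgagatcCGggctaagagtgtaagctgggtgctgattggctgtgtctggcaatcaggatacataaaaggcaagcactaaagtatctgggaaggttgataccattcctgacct
Hal: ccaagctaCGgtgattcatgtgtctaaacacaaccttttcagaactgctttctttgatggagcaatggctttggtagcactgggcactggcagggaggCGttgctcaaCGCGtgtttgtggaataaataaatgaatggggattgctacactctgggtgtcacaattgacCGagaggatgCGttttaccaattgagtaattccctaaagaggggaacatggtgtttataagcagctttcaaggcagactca

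The run of Fah held 16 CG dinucleotides, that of Hal 6, and those of Tat and Tdo2 3 each. Over the full window of 300 bases, which adds 50 bases after the start, promoters were found in the table for 7 of the 8 genes (Sds had no entry). Fah had 19 CG dinucleotides there, and 71.9% of the 32851 promoters of the table had fewer. Hpd and Hal each had 7, the median of all promoters, Tat and Aass each 5, Tdo2 4 and Hgd 2. Only 14.1% of promoters had fewer than Hgd. The share of G and C was 64.3% for Fah, 61.3% for Hpd, 53.7% for Tat, 50.3% for Aass, 47.7% for both Tdo2 and Hal, and 41% for Hgd, beside a median of 52.7%. Of the 7 genes with a promoter in the table, Fah had the most CG dinucleotides, though fewer than the upper quartile of all promoters, 20. Whether CG content goes with the liver differences was not tested.

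The same windows were searched on both strands for the letters of 5 motifs. TATAAA, the core of the TATA box, was found in 3 of 7 windows, those of Hgd, Tdo2 and Hal, and in 13.6% of all promoters. In Hal it began 28 bases before the start, on the strand opposite the gene (position -28). In Tdo2 and Hgd it lay farther upstream, at -229 on the strand of the gene and at -139 on the opposite strand. TTGCNNAA, a form of the C/EBP site, was found in 3 of 7 windows, at -150 in Hal, at -22 in Aass and at -49 and 14 in Hgd, and in 10.8% of all promoters. GTTAAT (HNF1), TGTTTAC (FOXA) and CAAAGTCCA (HNF4) were in none of the 7 windows, and in 7.1%, 3.65% and 0.475% of all promoters. These matches describe the letters of short windows and no binding was measured.

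Values are given below in CPM, reads relative to the scaled library size, after taking the deposited log2 values out of the log. They are called normalised values, and the reads behind them were recovered from the table. Over the 8 enzymes these counts ranged from 9 reads, for Tdo2 in frozen heart, to 532 reads, for Hpd in frozen liver, and 100 reads are needed for a counting error of 10 percent. Since the sources used here do not say in which part of a gene reads were counted, levels are compared between libraries and not between genes.

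Across the organs, 7 of the 8 enzymes carried more H3K4m3 in liver than in the mean of brain, heart and kidney, and Fah did not pass. The estimates ran from 8.68-fold for Hpd to 2.03-fold for Aass among those that passed. The median log2 difference of the 8 enzymes was 1.91, beside -0.01 for all tested genes. Of all tested genes, 5.13% passed as higher in liver and 4.84% as lower (1317 and 1242 genes, but 1304 and 707 with precision weights). Each test came from 1 limma model of organ and preservation over the 8 libraries, with Benjamini-Hochberg adjustment over all 25680 genes and a threshold of 0.05 on the adjusted p. Both liver libraries lay above all 6 others for 7 of 8 enzymes, again all but Fah, and for 5.12% of tested genes. After quantile normalization this held for Fah and not for Hgd. Without the frozen liver library, only Hpd passed. Without frozen brain, and likewise without frozen kidney, 4 enzymes passed (Hal, Hpd, Tat and Tdo2).

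**Figure D1:**
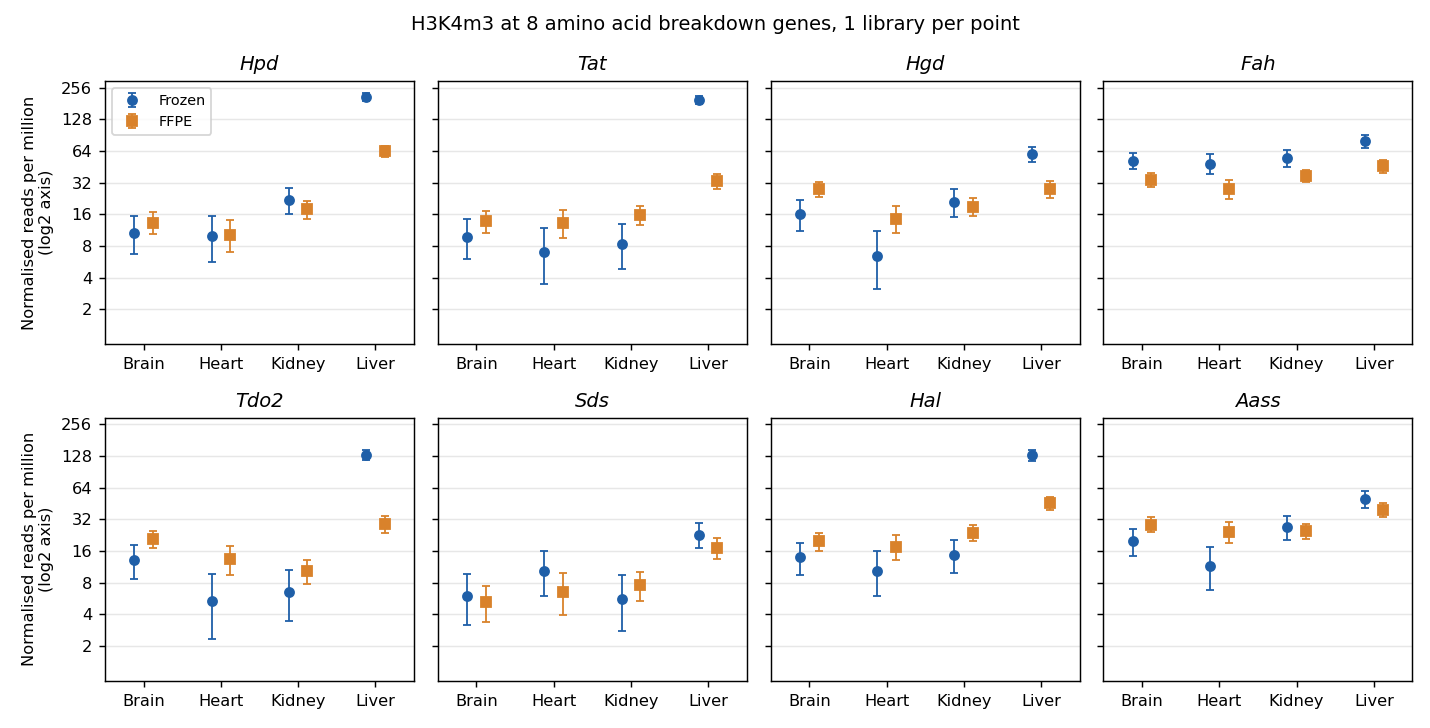
H3K4m3 at each of the 8 enzymes in normalised values (CPM, log2 axis), by organ, with circles for frozen and squares for FFPE libraries; 1 point is 1 library and bars are 95% counting intervals of its reads. In every panel the frozen liver point is the highest of the 8, from 208.9 at Hpd to 23.0 at Sds.

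Tat, the transaminase that takes the amino group from tyrosine at the first step of its breakdown and is a classical glucocorticoid-induced liver enzyme, lies on chromosome 8 (gene ID 234724, 109986078 to 109999804). Its normalised value was 196.8 in frozen liver and 33.0 in FFPE liver. In the frozen libraries of the other organs it was 9.77 in brain, 7.05 in heart and 8.34 in kidney, and in their FFPE libraries 13.7, 13.3 and 15.8. The groups did not overlap, and the 2 liver libraries differed more from each other than the 6 remaining libraries did among themselves. The log2 difference of liver was 2.89 ± 0.53, or 7.40-fold (SE of the limma fit, 2 liver and 6 other libraries, adjusted p = 0.00356).

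Hpd, the dioxygenase that turns the product of Tat into homogentisate and is the target of the drug nitisinone, lies on chromosome 5 (gene ID 15445, 123171807 to 123182723). Frozen liver had a normalised value of 208.9 and FFPE liver 64.1. Kidney came next with 21.9 frozen and 17.8 FFPE, followed by brain with 10.6 and 13.4 and heart with 9.88 and 10.3. The order liver, kidney, brain, heart was the same in both preservation types, and the groups of liver and other libraries did not overlap. The difference of 3.12 ± 0.35 on the log2 scale (adjusted p = 0.000231, limma) was the largest of the 8 enzymes and the one that passed without frozen liver as well, where it was 2.25.

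Hgd, which opens the aromatic ring of homogentisate and whose loss causes alkaptonuria, lies on chromosome 16 (gene ID 15233, 37579742 to 37632026). Its normalised value was 59.4 in frozen liver but 27.9 in FFPE liver, hardly above the 27.8 of FFPE brain. The remaining libraries lay at 16 in frozen brain, 6.49 and 14.5 in frozen and FFPE heart, and 21.0 and 18.9 in frozen and FFPE kidney. Liver was 2.55-fold higher, at 1.35 ± 0.38 (adjusted p = 0.0366, limma). That call was lost without the low-value filter (adjusted p = 0.0579), with precision weights (0.0686) and without frozen brain (0.114), frozen heart (0.097), FFPE kidney (0.0897), frozen kidney (0.0663) or frozen liver, where the log2 difference was 0.50 (0.705).

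Fah, which splits fumarylacetoacetate at the last step of the route and whose loss causes hereditary tyrosinaemia, lies on chromosome 7 (gene ID 14085, 84585159 to 84605942). In frozen tissue its normalised value was 79.1 in liver, 54.8 in kidney, 51.7 in brain and 48.3 in heart. In FFPE tissue it was 45.9, 37.1, 34.2 and 28.0 in the same order of organs. Liver was thus the highest organ within each preservation type, yet FFPE liver lay below all 3 frozen libraries of the other organs. The log2 difference of liver, 0.55 ± 0.19, missed the threshold at an adjusted p of 0.0957 (limma), with a fold of 1.46.

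Tdo2 is the dioxygenase that opens the indole ring of tryptophan and starts the kynurenine pathway. It lies on chromosome 3 (gene ID 56720, 81958412 to 81975728). The normalised value was 132.0 in frozen liver and 28.8 in FFPE liver. Brain had 13.1 frozen and 20.8 FFPE, heart 5.36 and 13.3, and kidney 6.54 and 10.3. The libraries of liver stood above all others, with FFPE brain nearest to FFPE liver. The difference was 5.90-fold, or 2.56 ± 0.51 (adjusted p = 0.00572, limma).

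Hal, the ammonia lyase that makes urocanate from histidine, lies on chromosome 10 (gene ID 15109, 93488768 to 93516761). Liver had normalised values of 129.7 frozen and 45.6 FFPE. The other libraries stayed between 10.4 in frozen heart and 23.9 in FFPE kidney, with 14.7 in frozen kidney, 13.9 and 19.8 in frozen and FFPE brain and 17.6 in FFPE heart. No overlap was seen, and the order liver, kidney, brain, heart was the same in both preservation types. Liver was 4.76-fold higher, at 2.25 ± 0.38 (adjusted p = 0.00207, limma).

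Sds, the dehydratase that makes pyruvate and ammonia from serine, lies on chromosome 5 (gene ID 231691, 120476547 to 120483932). It had few reads, 12 to 73 per library. Its normalised values were 23.0 in frozen and 17.2 in FFPE liver, against 10.4 and 6.58 in heart, 6.03 and 5.21 in brain and 5.64 and 7.60 in kidney, each frozen first. The liver libraries lay above all others and near each other. The difference was 2.95-fold, at 1.56 ± 0.41 (adjusted p = 0.0266, limma). The call was lost without frozen liver (adjusted p = 0.299), frozen kidney (0.0887), frozen brain (0.0687) or FFPE heart (0.0538).

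Aass, the enzyme with 2 activities that starts lysine breakdown through saccharopine, lies on chromosome 6 (gene ID 30956, 23072173 to 23132986). Its normalised values were 49.6 in frozen and 39.3 in FFPE liver, 26.8 and 24.8 in kidney, 19.7 and 28.5 in brain and 11.6 and 24.3 in heart. Liver was above all others by a smaller margin, 2.03-fold or 1.02 ± 0.29 (adjusted p = 0.0399, limma). This was the call nearest to the threshold. It did not hold without the low-value filter (adjusted p = 0.0549), with precision weights (0.0524) or without FFPE brain (0.0606), frozen brain (0.112), frozen heart (0.0968), FFPE kidney (0.118), frozen kidney (0.066) or frozen liver (0.533).

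Kidney was set against liver alone because several of these enzymes also act there. Of the 8 enzymes, 4 were higher in liver than in kidney, beside 1.81% of tested genes that were higher and 1.5% that were lower. Tdo2 differed by 2.91 ± 0.63 (adjusted p = 0.0207), Tat by 2.81 ± 0.65 (0.0289), Hpd by 2.55 ± 0.43 (0.00527) and Hal by 2.04 ± 0.47 (0.0271), all by limma. Sds at 1.60 (adjusted p = 0.115), Hgd at 1.03 (0.329), Aass at 0.78 (0.345) and Fah at 0.42 (0.48) did not pass, which does not show equal levels. With precision weights only Hpd passed, without the low-value filter Hpd and Tdo2, without FFPE kidney Hpd and Tat, and without either frozen kidney or frozen liver none did. Without FFPE liver, Hgd passed as well, at 1.88.

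Below liver, no enzyme passed in a comparison between the other organs. These counts are near the shares over all tested genes given below, and a missed threshold does not show equal levels. Kidney against the mean of brain and heart gave 0 of 8 enzymes, also in each of the 13 alternatives, with a median of 0.26 against 0.03 for all genes, while 1.25% of tested genes were higher and 1.31% lower (656 genes, and 3138 at an unadjusted p under 0.05). Hpd came nearest, at 0.85 ± 0.37 with an unadjusted p of 0.0373 and an adjusted p of 0.352 (limma). Its 2 kidney libraries lay above all brain and heart libraries. Brain against heart also gave 0 of 8, with 3.01% of tested genes higher and 3.31% lower (1622 genes, 4319 unadjusted). Hgd had the largest value there, 1.12 ± 0.46 higher in brain (adjusted p = 0.222), and passed when FFPE liver was left out.

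The other steps around each enzyme were described along 4 routes. For scale, 5.13% of all tested genes passed as higher in liver and 4.84% as lower. In the tyrosine route, Gstz1, the isomerase between Hgd and Fah, was 4.79-fold higher in liver (adjusted p = 0.0017, limma). Thus 4 of the 5 genes from Tat to Fah passed and Fah, at the end, did not. All 4 genes of the histidine route passed, with Uroc1 at 3.01-fold, Amdhd1 at 3.60-fold and Ftcd at 4.67-fold beside Hal. Within frozen tissue the log2 differences of Uroc1, Amdhd1 and Ftcd were 2.19, 2.71 and 2.88. Within FFPE tissue they were 0.99, 0.98 and 1.56. After Tdo2, the formamidase Afmid had a fold of 1.69 and did not pass (adjusted p = 0.073, but 0.0221 without FFPE liver), whereas Kmo at 2.57-fold, Kynu at 3.13-fold and Haao at 4.82-fold did. After Aass, Dhtkd1 at 2.05-fold and Gcdh at 2.32-fold passed. Aldh7a1 with a fold of 1.33 (adjusted p = 0.225) and Aadat with 2.03 (0.138, but 0.0257 without FFPE heart and 0.0149 without FFPE liver) did not.

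**Figure D2:**
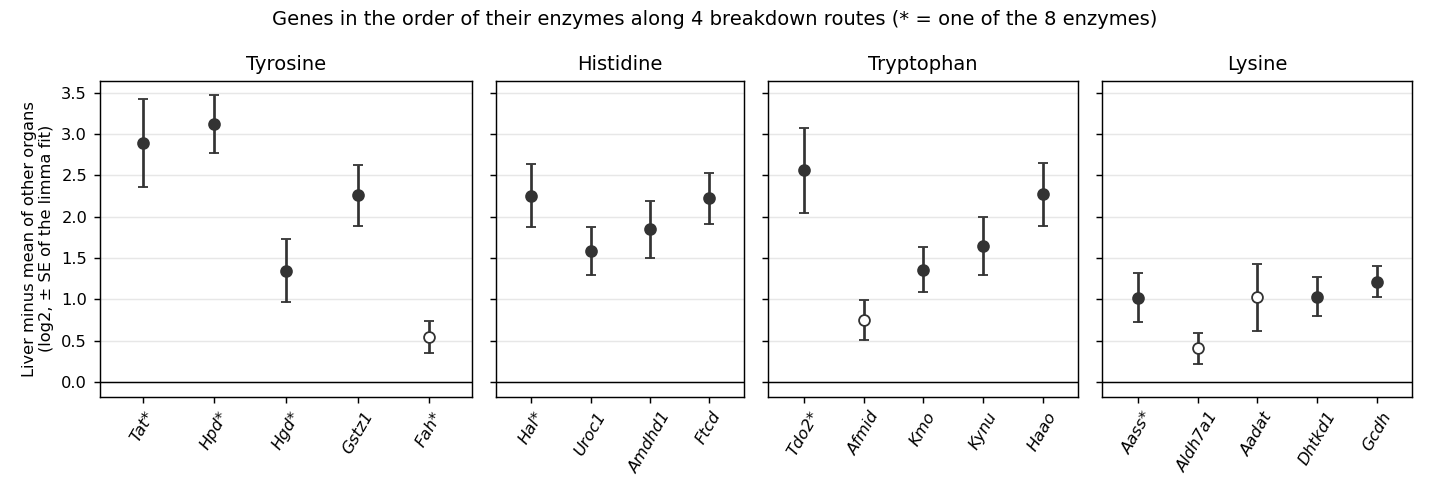
Log2 difference of liver from the mean of brain, heart and kidney (points, with bars of ± 1 SE of the limma fit) for genes in the order of their enzymes along 4 routes; filled points passed and asterisks mark the 8 enzymes. Tyrosine genes pass from Tat to Gstz1 and end with the open point of Fah at 0.55.

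A wider list of 69 other amino acid breakdown genes, all tested, had 32 higher and 1 lower in liver, with a median of 0.75. Over all tested genes, 5.13% were higher and 4.84% lower. The 8 enzymes are not among the 69, and the list was drawn up with earlier results of these data known. By group, 3 of 5 phenylalanine and tyrosine genes were higher, among them Qdpr at 2.78-fold, and 5 of 10 tryptophan and kynurenine genes, among them Qprt at 3.97-fold. Histidine genes were higher for 3 of 3, lysine genes for 3 of 5, including Pipox at 2.93-fold, and serine, glycine and threonine genes for 6 of 11. The last were led by Agxt, the peroxisomal transaminase for glyoxylate, at 8.69-fold, and by the glycine cleavage genes Gldc at 3.69-fold and Amt at 3.66-fold. Methionine and cysteine genes were higher for 7 of 8, with the methyltransferase Gnmt at 7.58-fold, Mat1a at 6.15-fold and Csad at 4.58-fold. Proline, glutamine and glutamate genes were higher for 5 of 9, with Prodh2 at 10.3-fold, Gpt at 4.41-fold and Gls2 at 2.39-fold. Of the 20 list genes chosen by the size of their liver difference and reported here, 15 lost the call without frozen liver and 5 passed (Ftcd, Gcdh, Gpt, Gnmt and Mat1a). Qprt was also lost without FFPE heart, frozen brain or frozen kidney, and without the low-value filter.

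Branched-chain amino acid genes gave 0 of 18 in liver in either direction, with a median of 0.12, a count near the shares of 5.13% and 4.84% over all tested genes. In the comparison of liver with kidney, 13 of the 69 genes were higher and 0 lower, beside 1.81% and 1.5% of all tested genes. For kidney against brain and heart, 1.25% of all tested genes were higher and 1.31% lower. Kidney exceeded brain and heart at 3 of the 69, among them Csad at 1.67 (adjusted p = 0.0297) and Prodh at 0.90 (0.0279), by limma. Both of these calls were lost without frozen brain, without either heart library and without either kidney library, and that of Csad also with precision weights or without the low-value filter.

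**Figure D3:**
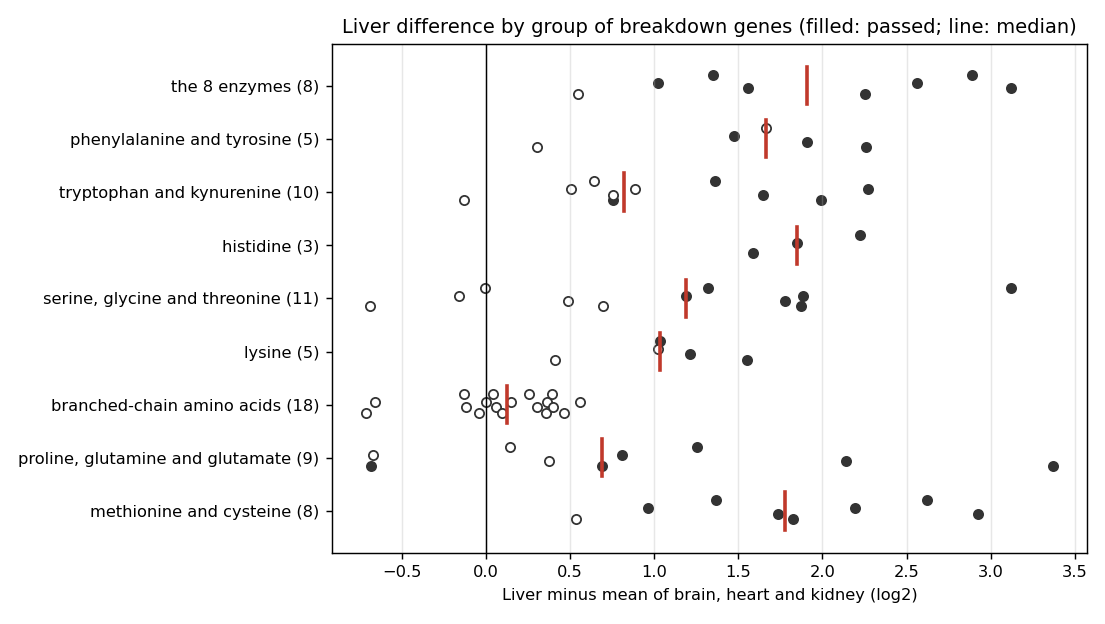
Log2 difference of liver from the mean of brain, heart and kidney, 1 point per gene, for the 8 enzymes and 8 groups of other breakdown genes with the number of genes in brackets; filled points passed and the vertical line is the median. The medians run from 1.91 for the 8 enzymes to 0.12 for branched-chain genes, where no point is filled.

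FFPE and frozen libraries differed at 1 of the 8 enzymes. Fah was lower in FFPE tissue, at -0.68 ± 0.17 (adjusted p = 0.00664, limma), and in each of the 4 organs the FFPE value was under the frozen one. Of all tested genes 16.5% were higher and 21.3% lower in FFPE, so a call is common in this comparison. The median of all genes was 0.18 by the deposited scaling and 0.016 after quantile normalization, where Fah stood at -0.40 with an adjusted p of 0.0895. The other 7 enzymes ranged from -0.40 at Hpd to 0.29 at Aass without passing, and the median of the 8 was 0.02. Without FFPE liver, 3 more enzymes passed as higher in FFPE, Tdo2 at 0.88, Tat at 0.78 and Hal at 0.66. With precision weights, Hpd at -1.07 and Tat at -1.34 passed as lower. Among the 69 other breakdown genes 3 were higher and 17 lower in FFPE.

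The distance of liver from the other organs was larger in frozen than in FFPE tissue for 8 of 8 enzymes, and for 7 of 8, all but Fah, after quantile normalization. Taken with its sign, it was larger in frozen tissue for 52.2% of tested genes. That share covers genes high and low in liver alike, so it cannot show whether the enzymes differ from other liver-high genes. For the 10 hepatocyte markers the FFPE minus frozen distance had a median of -1.84, beside -1.72 for the 8 enzymes. In frozen libraries the median log2 distance of the enzymes was 2.76, and in FFPE libraries 1.10, beside 0.03 and 0.0007 for all tested genes. After quantile normalization the medians of the enzymes were 2.24 and 1.38. The fold for Tat was 23.7 in frozen and 2.32 in FFPE tissue, for Tdo2 17.1 and 2.03, for Hpd 15.9 and 4.76, and for Hal 10.1 and 2.25. Hgd had 4.59 and 1.42 and Aass 2.71 and 1.52. For Sds, at 3.24 and 2.68, and Fah, at 1.53 and 1.39, the 2 preservation types lay close together. Liver was nevertheless the highest organ for all 8 enzymes in both types, while it was highest for 32.5% of tested genes in frozen and 27.7% in FFPE tissue.

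**Figure D4:**
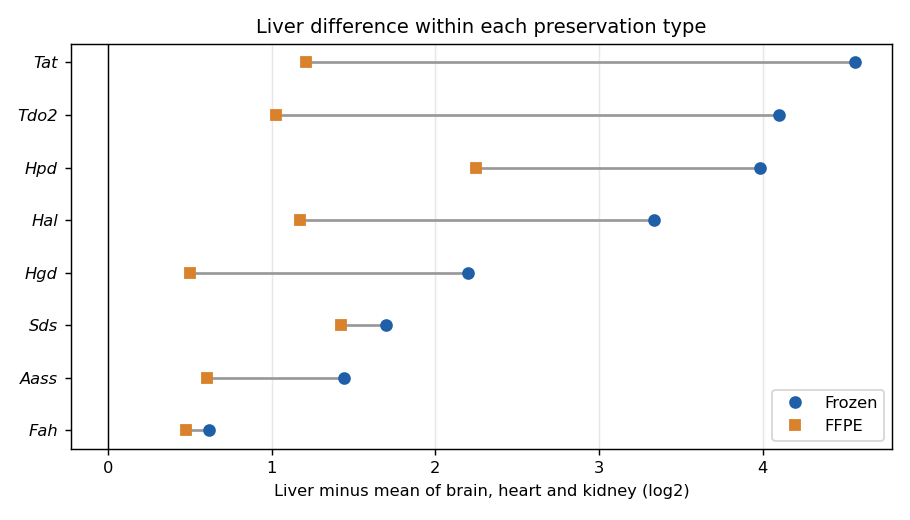
Log2 distance of liver from the mean of brain, heart and kidney within frozen (circles) and within FFPE libraries (squares), 1 line per enzyme, each point from 1 liver and 3 other libraries. Every circle lies to the right of its square, by the most at Tat (4.56 against 1.21) and the least at Fah (0.62 against 0.48).

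The difference between these distances was tested with an interaction term in limma (2 residual degrees of freedom). It passed for 3 of 8 enzymes, all with a smaller distance in FFPE: Tat at -3.35 ± 0.53 (adjusted p = 0.0154), Tdo2 at -3.07 ± 0.57 (0.0241) and Hal at -2.16 ± 0.45 (0.0382). Among all tested genes 0.611% passed as higher and 0.432% as lower, which are 157 and 111 genes. This split turned to 194 higher and 400 lower with precision weights and was 11 and 3 after quantile normalization. Hpd at -1.74 (adjusted p = 0.0904), Hgd at -1.69 (0.15), Aass at -0.83 (0.426), Sds at -0.27 (0.904) and Fah at -0.14 (0.886) did not pass. All 3 calls were lost after quantile normalization, at adjusted p of 0.119 for Tat, 0.155 for Tdo2 and 0.343 for Hal. Without the low-value filter, Tat alone passed. The call of Hal was also lost without FFPE kidney (0.0545), and Hpd passed without frozen heart or without FFPE heart, and with precision weights.

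Of the 10 hepatocyte markers 5 passed as smaller in FFPE in the interaction test and 0 as larger. In that test 0.432% of all tested genes passed as lower and 0.611% as higher. The median of the markers was -1.84, beside -1.72 for the 8 enzymes and -0.04 for all tested genes. The summed normalised value of the markers was 1484 in frozen liver and 578 in FFPE liver, and between 130 and 241 in the 6 other libraries. None of the 10 was at 0 reads in any library. After quantile normalization 0 of the 10 passed, with a median of -1.04, and without the low-value filter 2 did. Markers of the other organs had medians above 0 in the same test, 1.22 for cardiomyocytes, 0.83 for neurons and 0.81 for the proximal tubule, with 0 of 8 passing in each list. The medians were 0.31 for Kupffer cells and macrophages, 0.33 for endothelium and 0.44 for bile duct, with 0 passing. After quantile normalization that of bile duct was -0.016. The spread of log2 values over all tested genes was also narrower in FFPE libraries, with SDs of 1.59 to 1.77 against 2.10 to 2.34 in frozen ones. The part of the lower marker level, or of this narrower spread, in the enzymes' smaller FFPE distance was not tested. Of the other 69 breakdown genes, 3 passed as smaller in FFPE, Agxt at -3.53 (adjusted p = 0.0346), Gpt at -1.97 (0.026) and Gldc at -1.71 (0.0337), and 0 as larger. These calls too were lost after quantile normalization or without the low-value filter, and that of Gldc without either kidney library.

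The enzymes were not equally alike in their profiles over the 8 libraries. Pearson's r with the mean profile of the 8, which includes the gene itself, was 0.991 for Hal, 0.985 for Tat, 0.971 for Hpd and 0.948 for Tdo2. It was 0.879 for Hgd, 0.872 for Aass, 0.803 for Sds and 0.594 for Fah. Pairs ranged from 0.305 (Fah and Aass) to 0.990 (Tat and Hal). All these points share their libraries and depth, and frozen liver was the highest library for every enzyme, so the values are descriptions over 8 points.

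The genes outside the list with the most similar profile were Lrrc3 (r = 0.997), Amdhd1 (0.997), Inhbe (0.996), Plbd1 (0.990), Mup3 (0.987), Acat3 (0.987), Ugt2b5 (0.985) and Apoc1 (0.984). Inhbe encodes an inhibin beta subunit made in liver and Apoc1 an apolipoprotein of plasma lipoproteins. Mup3, of the major urinary proteins, and Ugt2b5, of the glucuronosyltransferases, belong to multigene families whose members may share reads, and their values are uncertain. All 8 had their highest value in frozen liver, as the enzymes had, which choosing them by likeness to the enzymes' mean profile favoured.

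Hal and Sds each have another breakdown gene of the same amino acid close by. Amdhd1 lies 6576 bases from Hal on chromosome 10 (93523338 to 93540111) with 0 genes between them, acts 2 steps later on histidine, and followed Hal with r = 0.997. Sdsl, the paralog of Sds, lies 3721 bases away from it on chromosome 5 (120458193 to 120472825), also with 0 genes between. There the profiles differed (r = -0.17), and Sdsl had a liver difference of 0.49 ± 0.64 that did not pass (adjusted p = 0.739, limma). Sdsl had few reads in some libraries, with log2 values of -0.24 in frozen heart and 1.64 in frozen brain. Its r and its missed threshold are therefore uncertain. Sds also shares 40 bases with Plbd2, whose log2 values ran from 5.26 in FFPE heart to 6.99 in frozen liver, and reads in that overlap cannot be assigned here. The annotated spans of Tat and Hgd are overlapped by a pseudogene, Gm45795, and a long noncoding RNA, Gm46559, for which no value was used here.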

How the data were processed

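H3K4m3 libraries of 4 mouse organs, frozen and FFPE, were analysed from 1 table of 8 columns. The authors deposited log2 values per gene, of the form (reads + 0.5) over a scaled library size, in CPM. Whole reads were recovered within 0.001 for 100% of values in each library. The submitters' processing notes name Bowtie2, featureCounts, limma and mm10, and no source used here gives their versions or the part of a gene that was counted. Columns were matched to organ and preservation type by name, and 0 columns were left unmatched.

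Genes with a mean log2 of at least 0 (25680 of 27179) were fitted with limma 3.58.1 in R 4.3.3 as organ plus preservation (3 residual degrees of freedom), empirical Bayes with an intensity trend, and Benjamini-Hochberg adjustment. A liver by preservation interaction was fitted separately. The code was tested on simulated data. Gene names and positions came from RefSeq tables (GRCm38.p6, 25275 IDs matched; 1275 genes lacked a symbol). A count of 0 allows up to 3 reads, 0.537 to 1.69 CPM between libraries; such limits and the 95% Poisson intervals cover counting error only.

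The 8 enzymes, the lists, the comparisons and the 13 alternatives were chosen with earlier results of these data known. Named genes were all 8 enzymes, up to 3 passing genes per list with the largest liver difference, any list gene lower in liver, the genes along the 4 routes, the 8 most similar profiles, and overlapping neighbours; the routes and Sdsl were added later, as were list genes that passed in the kidney and interaction comparisons. Some genes that this rule gives are not reported here.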

Additional observations from a re-analysis of the deposited data

Results flagged for a closer look

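For 3 enzymes, a direct test of whether the liver difference was the same in FFPE and frozen tissue passed (limma interaction term, adjusted over 25680 genes). Tat differed by -3.35, Tdo2 by -3.07 and Hal by -2.16 on the log2 scale, each with a smaller liver difference in FFPE. After quantile normalization none of the 3 passed (adjusted p of 0.119, 0.155 and 0.343, limma), and without the low-value filter only Tat did. The test rests on 1 liver library per preservation type. Hepatocyte markers had a median of -1.84 in the same test, and -1.04 after quantile normalization, and their part in these values was not tested.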

How the results depend on the processing

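Over 13 alternatives, 61 gene values were recomputed 771 times; 654 kept their direction and side of the threshold, 84 lost the call (26 of these without frozen liver), 11 gained one with the same sign and 22 changed sign. None of those 22 were among the 41 values that passed, and 1 of them, Tat in the FFPE comparison without FFPE liver, passed with its new sign. The cause was not tested for any change below.

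Quantile normalization raised the genes that passed for kidney against brain and heart from 656 to 1323, lowered those of the interaction from 268 to 14, and left 0 enzymes in the FFPE comparison (1 otherwise) and 0 in the interaction (3 otherwise). It turned Fah in the interaction to 0.16 and Tdo2 in the FFPE comparison to -0.14. Without the low-value filter, 68 genes and 1 enzyme passed in the interaction, and 2 enzymes in liver against kidney (4 otherwise). Precision weights gave 594 genes in the interaction (194 higher and 400 lower, beside 157 and 111), 1 enzyme in liver against kidney and 3 in the FFPE comparison, where Tdo2 stood at -0.96 and Hal at -0.53. With these weights, liver against the other organs gave 1304 higher and 707 lower genes, beside 1317 and 1242.

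Leaving out each library in turn moved the genes that passed from 464 to 4832 for liver against the others (2559 otherwise), from 16 to 3044 for liver against kidney (852), from 0 to 1645 for kidney against brain and heart, from 270 to 2850 for brain against heart (1622), from 6063 to 8633 for FFPE against frozen (9717) and from 181 to 831 for the interaction. The lowest values came without frozen liver, frozen kidney, frozen kidney, frozen brain, FFPE kidney and frozen brain in this order. Enzymes that passed ranged from 1 to 7 for liver against the others, 0 to 5 for liver against kidney, 0 to 1 for brain against heart, and 1 to 4 for FFPE against frozen. In the FFPE comparison, Hpd ranged from -0.65 to 0.031, Tat from -0.39 to 0.78, Tdo2 from -0.29 to 0.88 and Hal from -0.098 to 0.66; Sds in the interaction ranged from -0.53 to 0.017. The interaction could not be fitted without either liver library.

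No paired analysis was possible because the columns carry no replicate number; the organ term of the model does set each FFPE library beside the frozen library of its organ. Depth limits Sds, which had 12 to 73 reads per library, and the frozen heart values, where 9 to 85 reads stood behind the enzymes.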
